A study of Mus musculus with 20 samples.

Results

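The IL-36 cytokines and their receptor were followed in abdominal skin of 20 mice through 6 genes: Il1f6, Il1f8 and Il1f9, which encode the agonists IL-36 alpha, beta and gamma, Il1f5, which encodes the IL-36 receptor antagonist, and Il1rl2 and Il1rap, which encode the receptor chains. The array annotation carries the agonists and the antagonist under these older Il1f symbols. The 6 genes were chosen by name from the 22180 genes measured by an array feature with exactly 1 gene symbol, and each was read from the feature with the highest mean over all arrays. Il1rap had 3 such features and each of the other genes had 1.

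IL-36 alpha, beta and gamma are epithelial members of the IL-1 family and are made mainly by keratinocytes in skin. They bind the receptor chain Il1rl2, which then recruits the accessory chain Il1rap, also used by the receptors of IL-1 and IL-33, and the complex signals through MyD88 to NF-kappaB and MAP kinases. The antagonist binds Il1rl2 without recruiting Il1rap. In human skin this pathway is known for its part in psoriasis, and inherited loss of the antagonist is a known cause of generalized pustular psoriasis. The agonists gain most of their activity once proteases such as cathepsin S and neutrophil elastase have trimmed them, which transcript levels do not show.

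The mice were C57/B6 animals of 9 weeks fed a control chow diet (CD) or a high fat diet (HFD). Their shaved abdominal skin received a daily dose of 62.5 mg of 5% imiquimod (IMQ) cream or of vehicle for 5 days, and the skin was collected 24 h later. Imiquimod is an agonist of Toll-like receptor 7, and its repeated application is a common mouse model of psoriasis-like inflammation. Each of the 4 combinations of diet and cream was given to 5 mice, with 1 array per mouse, and is named CD-vehicle, HFD-vehicle, CD-IMQ or HFD-IMQ. All mice were shaved, and CD-vehicle skin is therefore shaved, vehicle-treated skin of chow-fed mice rather than untouched skin. The labels used here do not state the sex of the mice, what the diets contained or how long they were fed.

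Values are log2 expression from robust multi-array averaging (RMA), so that a difference of 1 is a 2-fold difference. Array medians lay between 2.86 and 3.04, and 2.94, their median, was taken as the limit at or below which a gene was called dim. The labelled tissue carried its defining markers: none of the 9 suprabasal keratinocyte, 6 basal keratinocyte or 7 fibroblast markers measured had a group mean at or below that limit. All 6 IL-36 family genes had means above it in every group. Arrays HFD-vehicle 3, HFD-IMQ 4 and CD-vehicle 3 stood farthest from their groups over all genes, with 42.8%, 30.0% and 28.4% of the squared distances within their groups. HFD-vehicle 3 also had the lowest values of its group for all 3 agonist genes, and CD-vehicle 3 for Il1f8 and Il1f9. Skin was analysed whole, so fewer cells of a type and less RNA per cell cannot be told apart, and the p-values measure the spread between mice.

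The agonist and antagonist genes lie side by side. In the RefSeq order of protein-coding genes on chromosome 2, Il1f8, Il1f9, Il1f6, Il1f5, Il1f10 (encoding IL-38) and Il1rn (encoding the IL-1 receptor antagonist) are 6 consecutive genes, whereas Il1a and Il1b lie in another stretch of the chromosome. Il1rl2 lies on chromosome 1 and Il1rap on chromosome 16. RefSeq windows upstream of the transcript start (build GRCm38.p6) were matched for 5 of the 6 genes, and the 250 bases before the start were searched on both strands for 5 motifs. The windows of 4 members whose transcripts moved with the treatment are shown, all on the forward strand. Capitals mark the motif matches.
Il1f8 (chr2:24152922-24153171): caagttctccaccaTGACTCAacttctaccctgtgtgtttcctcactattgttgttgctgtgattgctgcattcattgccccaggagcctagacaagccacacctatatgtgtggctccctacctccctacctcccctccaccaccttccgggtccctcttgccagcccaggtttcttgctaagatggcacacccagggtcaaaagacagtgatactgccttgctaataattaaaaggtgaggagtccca
Il1f9 (chr2:24186226-24186475): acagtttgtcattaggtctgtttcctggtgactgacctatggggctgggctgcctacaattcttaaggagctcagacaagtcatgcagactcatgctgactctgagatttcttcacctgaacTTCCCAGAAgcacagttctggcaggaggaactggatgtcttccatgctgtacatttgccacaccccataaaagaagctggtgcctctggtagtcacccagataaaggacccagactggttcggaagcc
Il1f5 (chr2:24276704-24276953): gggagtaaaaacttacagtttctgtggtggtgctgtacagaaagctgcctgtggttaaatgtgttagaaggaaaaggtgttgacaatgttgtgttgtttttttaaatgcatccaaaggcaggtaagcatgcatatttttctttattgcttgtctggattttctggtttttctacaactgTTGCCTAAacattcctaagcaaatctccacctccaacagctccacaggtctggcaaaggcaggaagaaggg
Il1rl2 (chr1:40324339-40324588): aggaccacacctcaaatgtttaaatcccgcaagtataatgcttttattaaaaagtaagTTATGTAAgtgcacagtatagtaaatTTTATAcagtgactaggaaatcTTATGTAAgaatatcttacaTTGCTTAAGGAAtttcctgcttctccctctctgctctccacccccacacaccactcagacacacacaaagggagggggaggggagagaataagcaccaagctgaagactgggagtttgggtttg

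The match in the Il1f8 window is to the AP-1 motif TGANTCA, 236 bases upstream of the start, and 6.75% of all 32851 RefSeq windows of this length hold that motif. The match in the Il1f9 window is to the STAT motif TTCNNNGAA, 128 bases upstream, a motif held by 7.02% of windows. A second Il1f5 window, which starts at base 24277021 of chromosome 2 and is not printed, also held a match to the STAT motif. The printed Il1f5 window held a match to the C/EBP motif TTNCNNAA, 71 bases upstream. The Il1rl2 window held 4 matches to the C/EBP motif, of which the pair nearest the start overlap, and the TATA box motif TATAAA on the reverse strand. These last motifs are common, at 36.8% and 12.4% of windows. The NF-kappaB motif, held by 7.25% of windows, was not found in these letters, and the Il1rap window, with a GC content of 74.4%, held none of the 5 motifs.

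Imiquimod raised all 4 genes that encode IL-36 ligands, agonists and antagonist alike, in mice on either diet. In chow-fed mice the rise ran from 5.73-fold for the antagonist Il1f5 to 15.8-fold for the agonist Il1f6. The receptor gene Il1rl2 fell by 0.58 on the log2 scale in the same comparison, and the accessory chain gene Il1rap did not pass the test. By limma, at an adjusted p below 0.05, 4 of the 6 genes were higher in CD-IMQ than in CD-vehicle skin, against 3.91% of all genes, and 1 was lower, against 7.02%. The 5 called genes compare with 10.9% of all genes called in either direction.

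**Figure D1:**
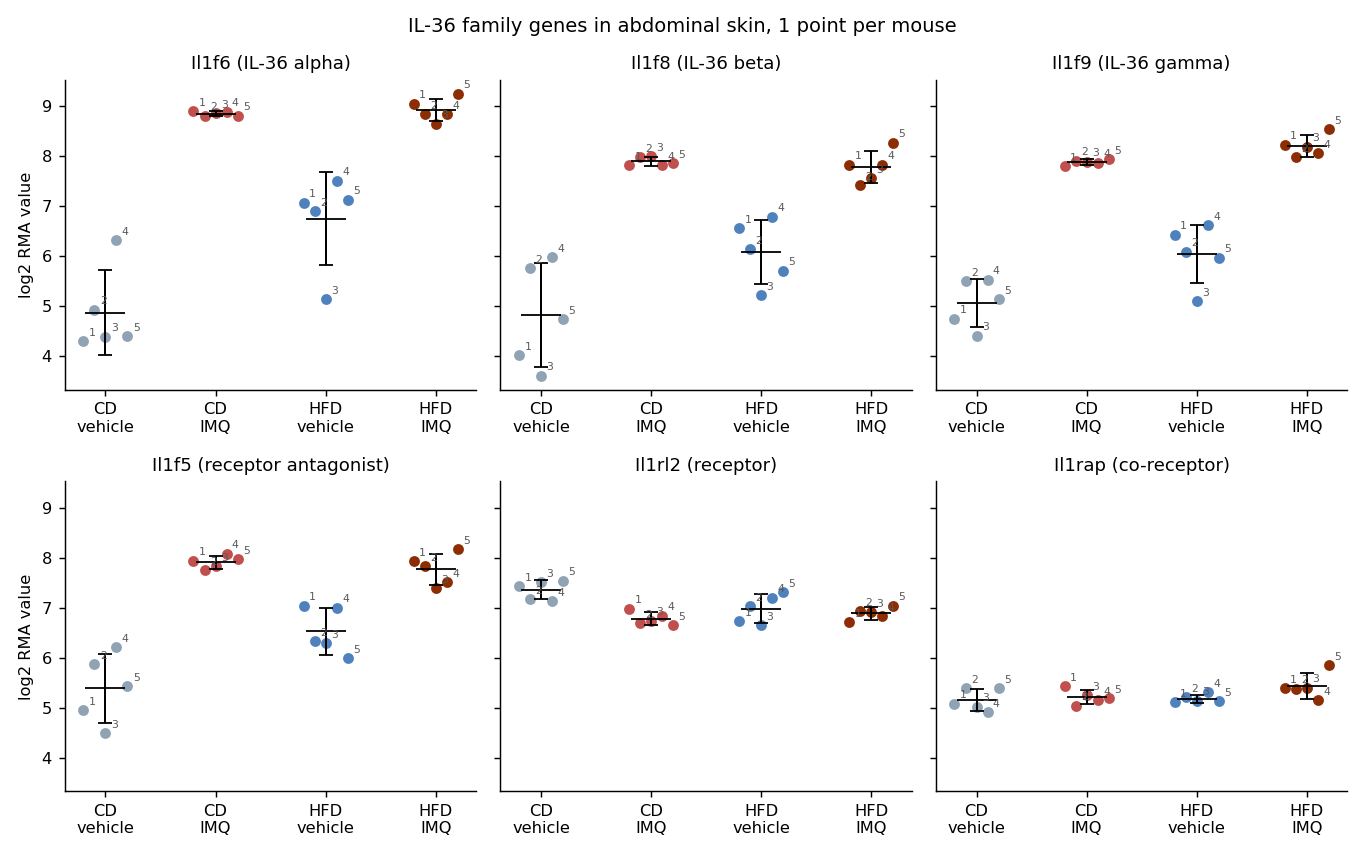
Log2 RMA value of each of the 6 genes (vertical axis) in the 4 groups (horizontal axis), with 1 point per mouse numbered by replicate and bars for the mean and standard deviation over 5 mice. The 4 ligand genes in the IMQ groups lie above every vehicle mouse of the same diet, the vehicle mice are widely spread, and Il1rl2 and Il1rap move little.

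Il1f6 (IL-36 alpha) measured 4.30, 4.93, 4.39, 6.32 and 4.40 in CD-vehicle mice and 8.89, 8.80, 8.86, 8.88 and 8.80 in CD-IMQ mice. In HFD-vehicle mice it measured 7.07, 6.89, 5.14, 7.51 and 7.13, and in HFD-IMQ mice 9.04, 8.83, 8.64, 8.84 and 9.24. Every IMQ mouse was above every vehicle mouse, and the vehicle groups overlapped because CD-vehicle 4 was high and HFD-vehicle 3 low for their groups. The difference was 3.98 ± 0.35 (SE) in chow-fed mice, with a limma adjusted p of 6.33e-08, and Il1f6 ranked 17 of 22180 genes by the size of its rise. In mice on the high fat diet it was 2.17 ± 0.35, a 4.51-fold rise (limma adjusted p = 0.000306).

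Il1f8 (IL-36 beta) measured 4.02, 5.76, 3.61, 5.98 and 4.74 in CD-vehicle mice and 7.82, 7.98, 7.99, 7.82 and 7.86 in CD-IMQ mice. The HFD-vehicle values were 6.56, 6.14, 5.22, 6.78 and 5.71, and the HFD-IMQ values 7.83, 7.41, 7.55, 7.83 and 8.27. Again no IMQ mouse overlapped a vehicle mouse, while CD-vehicle 2 and 4 lay within the range of the HFD-vehicle mice. The rise was 8.41-fold in chow-fed mice (log2 3.07 ± 0.35, limma adjusted p = 3.16e-06) and 3.24-fold on the high fat diet (1.69 ± 0.35, limma adjusted p = 0.00308).

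Il1f9 (IL-36 gamma) measured 4.75, 5.49, 4.41, 5.53 and 5.14 in CD-vehicle mice and 7.79, 7.90, 7.89, 7.86 and 7.94 in CD-IMQ mice. On the high fat diet it measured 6.43, 6.09, 5.10, 6.62 and 5.97 with vehicle and 8.22, 7.98, 8.19, 8.05 and 8.54 with IMQ. The IMQ mice were separate from the vehicle mice on both diets, and the HFD-IMQ mice were in addition all above the CD-IMQ mice. The difference was 2.81 ± 0.22 in chow-fed mice, a 7.02-fold rise (limma adjusted p = 1.27e-08), and 2.15 ± 0.22 on the high fat diet, a 4.45-fold rise (limma adjusted p = 1.18e-06).

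Il1f5, the receptor antagonist gene, measured 4.95, 5.88, 4.49, 6.21 and 5.44 in CD-vehicle mice and 7.94, 7.75, 7.82, 8.08 and 7.96 in CD-IMQ mice. Its values were 7.04, 6.33, 6.29, 7.0 and 5.99 in HFD-vehicle mice and 7.93, 7.83, 7.38, 7.51 and 8.17 in HFD-IMQ mice. For the antagonist gene, as for the agonist genes, the CD-vehicle mean was the lowest and the HFD-vehicle mean the next, with no overlap between IMQ and vehicle mice of either diet. The difference was 2.52 ± 0.25 in chow-fed mice (limma adjusted p = 5.18e-07) and 1.23 ± 0.25 on the high fat diet, a 2.35-fold rise (limma adjusted p = 0.00313).

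In HFD-IMQ against HFD-vehicle skin 4 of the 6 genes were higher and 0 were lower by limma, against 3.65% and 2.24% of all genes, and 5.89% in either direction. The groups did not overlap for 4 genes in this comparison, all higher with IMQ, against 3.67% of all genes higher without overlap, 2.39% lower and 6.06% in all. In CD-IMQ against CD-vehicle skin they did not overlap for 5 genes, 4 higher and 1 lower, against 3.78%, 5.1% and 8.89% of all genes. The median difference over the 6 genes was 2.67 in chow-fed mice and 1.46 on the high fat diet, where the medians over all genes were 0.016 and -0.00067. All 8 calls of ligand genes under IMQ held under each of 8 other settings of the analysis and without each of the 20 arrays in turn.

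Il1rl2, the chain that binds the ligands, measured 7.43, 7.17, 7.51, 7.13 and 7.54 in CD-vehicle mice and 6.98, 6.70, 6.74, 6.84 and 6.65 in CD-IMQ mice. The high fat diet values were 6.73, 7.03, 6.65, 7.20 and 7.31 with vehicle and 6.71, 6.93, 6.91, 6.83 and 7.04 with IMQ. Every CD-IMQ mouse was below every CD-vehicle mouse, and the HFD-vehicle mice overlapped both. The fall in chow-fed mice was 1.49-fold (log2 -0.58 ± 0.13, limma adjusted p = 0.00413), and the largest adjusted p under the other settings was 0.0219. In mice on the high fat diet the difference was -0.098 ± 0.13 (limma adjusted p = 0.799), with a 95% interval from -0.36 to 0.16. The responses in the 2 diets did not differ past the threshold when set against each other, at 0.48 ± 0.18 (limma adjusted p = 0.188).

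Il1rap, the accessory chain shared with the receptors of IL-1 and IL-33, measured 5.08, 5.40, 5.03, 4.91 and 5.40 in CD-vehicle mice and 5.44, 5.04, 5.25, 5.15 and 5.19 in CD-IMQ mice. With the high fat diet it measured 5.11, 5.21, 5.14, 5.32 and 5.14 under vehicle and 5.39, 5.38, 5.40, 5.15 and 5.85 under IMQ. All 4 groups overlapped, and HFD-IMQ 5 was the highest mouse. The difference was 0.052 ± 0.12 in chow-fed mice (95% interval -0.20 to 0.31, limma adjusted p = 0.855) and 0.25 ± 0.12 on the high fat diet (limma adjusted p = 0.306). The other 2 features of Il1rap were dim in every group, and none of the 3 passed the test in any comparison.

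In vehicle-treated skin 3 of the 4 ligand genes were called higher on the high fat diet. Each of these calls was lost with only the 2 vehicle groups in the fit. Il1f6 was 3.68-fold higher in HFD-vehicle than in CD-vehicle mice, Il1f5 was 2.20-fold higher and Il1f9 was 1.97-fold higher, so that the 3 called genes comprised 2 agonists and the antagonist. By limma 3 of the 6 genes were higher, against 1.22% of all genes, and 0 were lower, against 0.956%, with 2.18% of genes called in either direction. The groups overlapped for all 6 genes, where 1.64% of all genes were higher without overlap, 2.3% lower and 3.94% in all: 4 of the 5 HFD-vehicle mice lay above every CD-vehicle mouse for Il1f6, Il1f9 and Il1f5, and 3 of 5 for Il1f8.

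**Figure D2:**
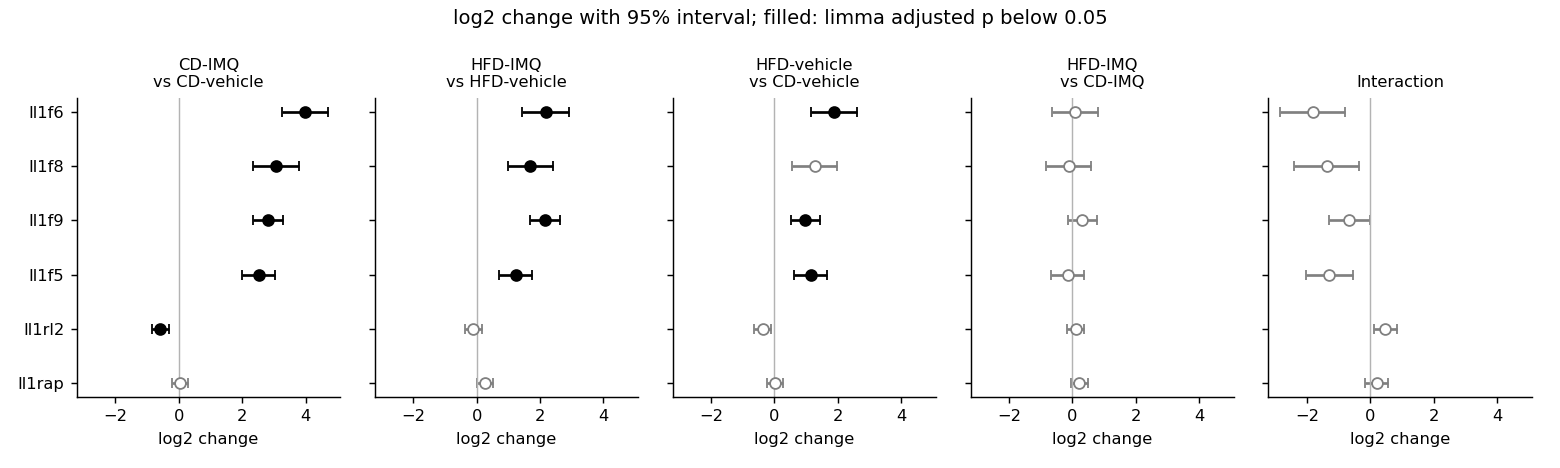
Log2 difference (horizontal axis) with its 95% interval for the 6 genes (vertical axis) in each comparison and in the interaction, which is the IMQ response on the high fat diet minus that on chow. Filled points have a limma adjusted p below 0.05: 5 genes for CD-IMQ against CD-vehicle, 4 for HFD-IMQ against HFD-vehicle, 3 for HFD-vehicle against CD-vehicle and 0 in the other panels.

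For Il1f6 the diet difference in vehicle skin was 1.88 ± 0.35 (limma adjusted p = 0.00478). It was 2.28 without HFD-vehicle 3, the low mouse, and 1.76 without CD-vehicle 3. With only the HFD-vehicle and CD-vehicle groups in the fit, so that the tighter IMQ groups no longer entered the estimate of the spread, the adjusted p was 0.0759 and the call was lost. The corresponding adjusted p was 0.127 for Il1f9 and 0.104 for Il1f5, and in that fit 137 genes were called in place of 483.

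Il1f9 differed by 0.98 ± 0.22 (limma adjusted p = 0.0225) and Il1f5 by 1.14 ± 0.25 (limma adjusted p = 0.0172). These calls were lost without some single arrays, while the differences stayed at 0.81 or more for Il1f9 and 0.91 or more for Il1f5. The Il1f9 call was lost without CD-vehicle 1 (limma adjusted p = 0.0561), CD-vehicle 3 (0.0834), HFD-vehicle 1 (0.0729) or HFD-vehicle 4 (0.0556). The Il1f5 call was lost without CD-vehicle 3 (limma adjusted p = 0.0583) or HFD-vehicle 1 (0.0619).

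The IL-36 beta gene Il1f8 was just outside the threshold, at 1.26 ± 0.35 or 2.40-fold (limma adjusted p = 0.0563). It passed under quantile normalization (limma adjusted p = 0.0495), after dim genes were filtered out (0.0435), with array weights (0.0224) and with the replicate number as a block (0.0478). It also passed without CD-vehicle 2 (limma adjusted p = 0.0237), CD-vehicle 4 (0.0121) or HFD-vehicle 3 (0.0279). The receptor genes did not pass: Il1rl2, whose unadjusted p was below 0.05 as for 14.7% of all genes, differed by -0.37 ± 0.13 (95% interval -0.63 to -0.11, limma adjusted p = 0.134) and Il1rap by 0.020 ± 0.12 (limma adjusted p = 0.969).

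The HFD-vehicle mean of each ligand gene lay between the CD-vehicle and CD-IMQ means. It stood 47.2% of the way up for Il1f6, 45.2% for Il1f5, 41.1% for Il1f8 and 34.7% for Il1f9 on the log2 scale. For Il1rl2 it stood 64.7% of the way down. Both distances are measured from the same CD-vehicle mice, so these shares are a description with no test.

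In IMQ-treated skin the diets did not differ past the threshold for any of the 6 genes. By limma 0 of the 6 genes were called between HFD-IMQ and CD-IMQ mice and 0 had an unadjusted p below 0.05, where 0% and 10.3% of all genes did. The 95% intervals bounded the difference between -0.65 and 0.80 for Il1f6, -0.83 and 0.60 for Il1f8, and -0.67 and 0.37 for Il1f5. For Il1f9 all 5 HFD-IMQ mice lay above all 5 CD-IMQ mice, as they did for 0.992% of all genes (0.676% were lower without overlap and 1.67% either), and the difference was 0.32 with a 95% interval of -0.15 to 0.78 (limma adjusted p = 0.643). Il1rl2 differed by 0.11 (limma adjusted p = 0.812) and Il1rap by 0.22 (limma adjusted p = 0.541).

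The interaction, the IMQ response on the high fat diet minus that on chow, was -1.81 ± 0.49 for Il1f6, -1.38 ± 0.49 for Il1f8, -0.66 ± 0.32 for Il1f9 and -1.29 ± 0.36 for Il1f5. By limma 0 of the 6 interaction terms passed, against 0.663% of all genes (0.473% positive and 0.189% negative). At an unadjusted p below 0.05 there were 5 of 6, namely the 4 ligand genes and Il1rl2, against 15.9% of all genes. The adjusted p was 0.0839 for Il1f6, 0.0861 for Il1f5, 0.166 for Il1f8 and 0.313 for Il1f9. The Il1f6 term passed without HFD-vehicle 3 (-2.21, limma adjusted p = 0.00614), without CD-vehicle 4 (-2.17, limma adjusted p = 0.0146) and with array weights (-2.01, limma adjusted p = 0.0325). The Il1f5 term passed without CD-vehicle 4 (-1.49, limma adjusted p = 0.0335).

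For the ligand genes, chow-fed mice differed far more among themselves in vehicle skin than in IMQ skin. The standard deviation of Il1f6 was 0.85 among CD-vehicle mice, larger than for 99.6% of genes in that group, and 0.043 among CD-IMQ mice, larger than for only 0.361% of genes. Its ratio of 19.9 was exceeded by 0 of the 22180 genes. The ratio was 12.3 for Il1f8 and 8.95 for Il1f9, exceeded by 0.0225% and 0.0947% of genes, and 5.33 for Il1f5, exceeded by 0.532%. The ratio was smaller on the high fat diet, at 4.07 for Il1f6, 2.72 for Il1f9, 1.93 for Il1f8 and 1.47 for Il1f5. This inequality bears on the comparisons above because limma used a single estimate of the spread for all groups.

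The balance of agonist to antagonist was read as the log2 difference between each agonist gene and Il1f5 on the same array. Features differ in brightness, so the sign of such a difference within a group has no meaning, and only its change between groups was compared. That change can still depend on how steeply each feature responds, which was not tested. With IMQ the Il1f6 agonist gene gained on the antagonist gene in chow-fed mice, and the Il1f9 agonist gene did so on the high fat diet. Whether these gains differ between the diets was not tested. Of 12 comparisons, 3 agonists in 4 pairs of groups, 2 passed a two-sided exact permutation test after Benjamini-Hochberg adjustment over the 12, and 252 rearrangements allow no p below 0.00794.

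**Figure D3:**
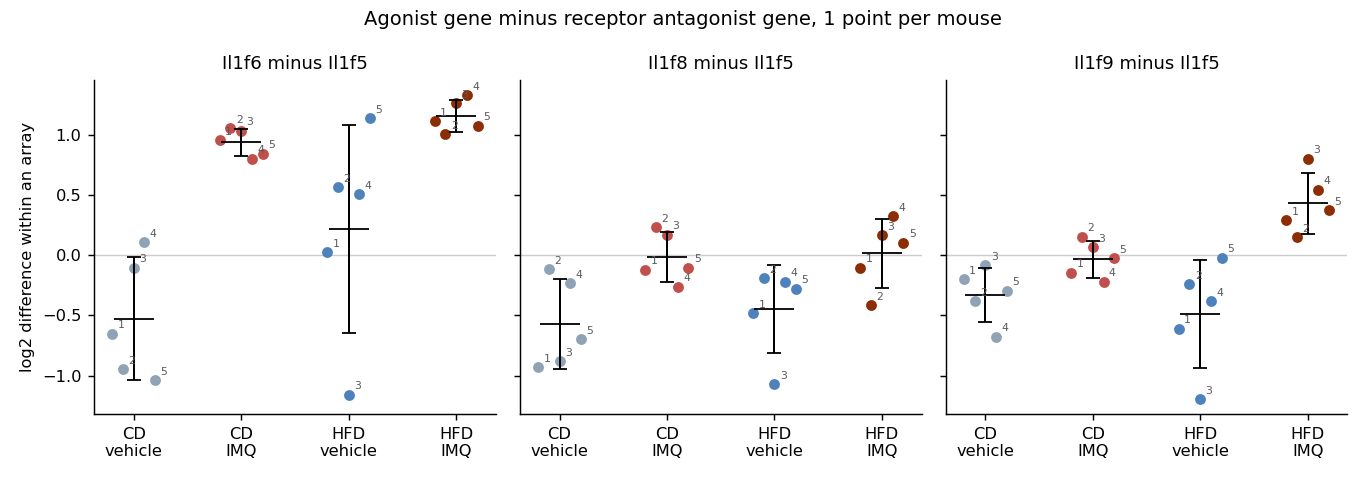
Log2 value of each agonist gene minus that of Il1f5 on the same array (vertical axis) by group (horizontal axis), with 1 numbered point per mouse and bars for the mean and standard deviation over 5 mice. Il1f6 minus Il1f5 is separate between CD-IMQ and CD-vehicle mice, and Il1f9 minus Il1f5 between HFD-IMQ and HFD-vehicle mice.

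Il1f6 minus Il1f5 was -0.65, -0.94, -0.10, 0.11 and -1.04 in CD-vehicle mice and 0.95, 1.05, 1.03, 0.80 and 0.84 in CD-IMQ mice. The groups did not overlap. The agonist gene gained 1.46 ± 0.23 on the antagonist gene, a 2.75-fold shift (exact permutation p = 0.00794, adjusted 0.0476). On the high fat diet it was 0.025, 0.56, -1.16, 0.51 and 1.14 with vehicle and 1.11, 1.0, 1.26, 1.33 and 1.07 with IMQ, where HFD-vehicle 5 overlapped the IMQ mice and HFD-vehicle 3 was far below the rest. That difference was 0.94 ± 0.39 (exact permutation p = 0.0317, adjusted 0.0762), and it passed without HFD-vehicle 5, at 1.17 (adjusted exact permutation p = 0.0317).

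For Il1f9 the call was on the high fat diet. Il1f9 minus Il1f5 was -0.61, -0.24, -1.20, -0.38 and -0.022 in HFD-vehicle mice and 0.29, 0.15, 0.80, 0.54 and 0.37 in HFD-IMQ mice. These groups did not overlap, and the agonist gene gained 0.92 ± 0.23 on the antagonist gene, a 1.89-fold shift (exact permutation p = 0.00794, adjusted 0.0476). Leaving out HFD-IMQ 1, 3, 4 or 5 took the adjusted p above the threshold, to between 0.0635 and 0.0952. The groups still did not overlap then, and the difference stayed between 0.83 and 0.96. With so few rearrangements the adjusted p moves in coarse steps, so these losses do not show that the difference rested on those mice. In chow-fed mice the same difference changed by 0.29 ± 0.12 (exact permutation p = 0.0397, adjusted 0.0794).

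Il1f8 minus Il1f5 changed by 0.55 ± 0.19 in chow-fed mice (exact permutation p = 0.0476, adjusted 0.0816) and by 0.46 ± 0.21 on the high fat diet (exact permutation p = 0.0556, adjusted 0.0833). The first passed without CD-vehicle 2 (adjusted exact permutation p = 0.0476) and the second without HFD-IMQ 2 (adjusted exact permutation p = 0.0381). Between the diets in IMQ skin, Il1f9 minus Il1f5 was higher by 0.47 ± 0.13 on the high fat diet (exact permutation p = 0.0159, adjusted 0.0635) and Il1f6 minus Il1f5 by 0.22 ± 0.079 (exact permutation p = 0.0317, adjusted 0.0762). Neither passed with all arrays, and each passed under quantile normalization (adjusted exact permutation p = 0.0238). Each also passed without HFD-IMQ 2, at 0.54 for Il1f9 and 0.26 for Il1f6 (adjusted exact permutation p = 0.0381). The adjusted p moves in coarse steps and depends on the other comparisons adjusted with it. The calls gained without HFD-IMQ 2 therefore do not show that the result depended on that mouse. In vehicle skin the diet differences were 0.74 ± 0.45 for Il1f6, 0.12 ± 0.23 for Il1f8 and -0.16 ± 0.22 for Il1f9, with adjusted exact permutation p-values of 0.190, 0.649 and 0.649.

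The genes around the IL-36 pathway were followed by role, and named members are the called genes with the largest differences. On the high fat diet 3.65% of all genes rose and 2.24% fell with IMQ. Between the diets in vehicle skin 1.22% of all genes were higher on the high fat diet and 0.956% lower. Of the 7 other ligand and inhibitor genes of the IL-1 family, 3 rose and 0 fell in CD-IMQ against CD-vehicle skin, where 3.91% of all genes rose and 7.02% fell. Il1a (IL-1 alpha) rose by 1.82 ± 0.23, Il1rn (the IL-1 receptor antagonist, the neighbour of the IL-36 cluster) by 1.05 ± 0.14, and Il18 (IL-18) by 1.0 ± 0.21, with limma adjusted p-values of 9.72e-06, 2.37e-05 and 0.00242. On the high fat diet 5 of the 7 rose and 0 fell, led by Il1b (IL-1 beta) at 2.16 ± 0.43 (limma adjusted p = 0.00237). Without HFD-vehicle 3, HFD-IMQ 1 or HFD-IMQ 5, 3 of the 7 rose. Without any other single high fat diet array except HFD-vehicle 1, 4 rose. Il1f10, which lies inside the cluster, did not pass in either diet, at 0.28 ± 0.15 and -0.31 ± 0.15 (limma adjusted p = 0.273 and 0.307).

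With diet alone 2 of the 7 rose in vehicle skin and 0 fell: Il1a by 0.92 ± 0.23 (limma adjusted p = 0.0326) and Il1rn by 0.64 ± 0.14 (limma adjusted p = 0.0157). With only the HFD-vehicle and CD-vehicle groups in the fit 0 of the 7 passed.  Il1b, whose product is the classic secreted IL-1, measured 0.79 ± 0.43 lower in HFD-vehicle than in CD-vehicle skin, a difference that did not pass (limma adjusted p = 0.417).

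Of 7 measured genes of other IL-1 family receptors, 2 fell and 0 rose in chow-fed mice with IMQ, against 7.02% and 3.91% of all genes. Il1r1, the signalling IL-1 receptor, fell by 0.97 ± 0.14 and Il1r2, its decoy, by 0.80 ± 0.15, with limma adjusted p-values of 4.71e-05 and 0.000808. On the high fat diet Il18rap, the accessory chain of the IL-18 receptor, rose by 0.93 ± 0.20 from a dim HFD-vehicle mean of 2.45 (limma adjusted p = 0.00440) and Il1r2 fell by 0.50 ± 0.15 (limma adjusted p = 0.0434), a call lost under median centring of the arrays. Sigirr, an inhibitory receptor of the family, was dim in every group.

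Of 17 measured genes of MyD88 and NF-kappaB signalling downstream of the receptor, 5 fell and 0 rose in chow-fed mice, and 2 rose and 0 fell on the high fat diet. Among all genes 7.02% fell and 3.91% rose in chow-fed mice, and 3.65% rose and 2.24% fell on the high fat diet. Tnfaip3, which encodes the NF-kappaB inhibitor A20, fell by 1.21 ± 0.17 in chow-fed mice (limma adjusted p = 4.16e-05). The kinase genes Irak1 and Map3k7 (which encodes TAK1) and the brake Irak3 fell by 0.58 ± 0.17, 0.47 ± 0.12 and 0.51 ± 0.16. Without CD-vehicle 1 the number that fell was 2. In vehicle skin Tnfaip3 was 0.96 ± 0.17 lower on the high fat diet and Nfkbia, which encodes the inhibitor I-kappaB alpha, was 0.70 ± 0.13 lower (limma adjusted p = 0.00300 and 0.00353).

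Tnfaip3 and Nfkbia were also the 2 of these 17 genes whose IMQ response differed between the diets, by 1.25 ± 0.24 and 0.87 ± 0.18 in the direction of a higher value on the high fat diet (limma adjusted p = 0.0154 and 0.0245). The number passing was 1 under quantile normalization and without CD-IMQ 4, HFD-vehicle 1 or HFD-IMQ 2, and 3 without CD-vehicle 5. Nfkbia fell by 0.42 ± 0.13 under IMQ in chow-fed mice and rose by 0.45 ± 0.13 on the high fat diet (limma adjusted p = 0.0318 and 0.0340). Nfkbiz, which encodes the IL-36 and IL-17 effector I-kappaB zeta, rose by 0.60 ± 0.17 on the high fat diet (limma adjusted p = 0.0427). That rise ran from the lowest group mean, 4.712 in HFD-vehicle mice, to 5.310 in HFD-IMQ mice, close to the CD-vehicle mean of 5.297. In CD-IMQ mice the mean was lower, at 4.971, a difference from CD-vehicle that was not called. HFD-IMQ 1 measured 5.995 and the other HFD-IMQ mice 5.033 to 5.322. With only the 2 high fat diet groups in the fit 0 of the 17 rose.

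Of 10 genes for proteases that process the IL-36 proteins and for their inhibitors, 2 rose in chow-fed mice and 4 on the high fat diet, and 0 fell. Among all genes 3.91% and 3.65% rose in these comparisons. Slpi, a secreted inhibitor of neutrophil elastase, rose by 0.99 ± 0.28 and 1.13 ± 0.28 (limma adjusted p = 0.0225 and 0.0144), and Ctsc, which activates neutrophil serine proteases, by 0.40 ± 0.11 and 0.54 ± 0.11. In CD-vehicle 1 Slpi measured 4.85, within the CD-IMQ range of 4.01 to 4.90, and in the other CD-vehicle mice 2.96 to 3.16. Ctss, which encodes cathepsin S, rose by 0.55 ± 0.17 on the high fat diet (limma adjusted p = 0.0499). Without CD-vehicle 3 the number in chow-fed mice was 0, and without HFD-IMQ 5 the number on the high fat diet was 1. Elane and Ctsg, for neutrophil elastase and cathepsin G, were dim in every group.

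**Figure D4:**
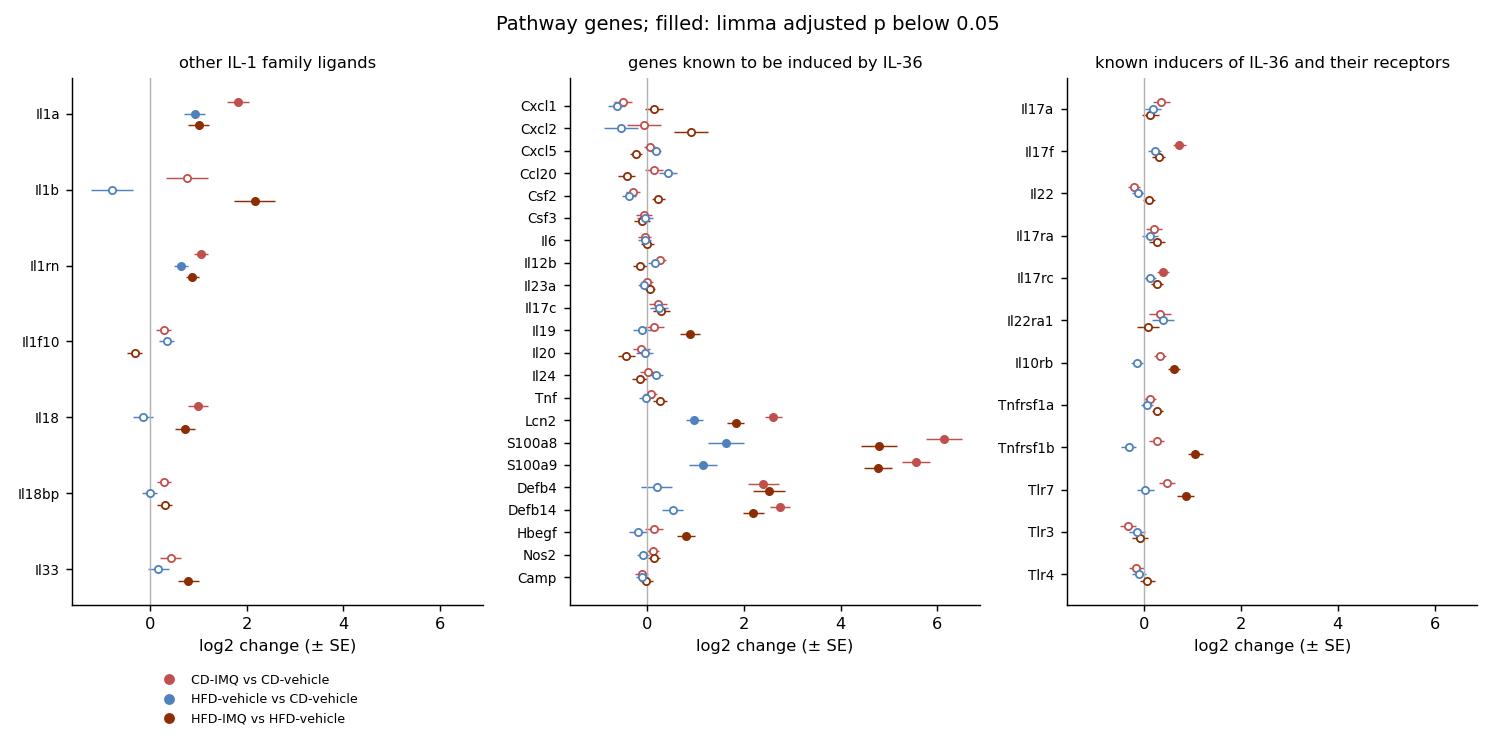
Log2 difference with its standard error (horizontal axis) for the other IL-1 family ligand and inhibitor genes, genes known to be induced by IL-36 and known inducers of IL-36 with their receptors (vertical axis), in 3 comparisons. Filled points have a limma adjusted p below 0.05; S100a8 and S100a9 lie farthest to the right, and most cytokine genes lie near 0.

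Of 22 genes known to be induced by IL-36 in skin cells, 5 rose in chow-fed mice with IMQ and 7 on the high fat diet, and 0 fell. Among all genes 3.91% and 3.65% rose in these comparisons. The antimicrobial genes led. S100a8 and S100a9, which encode calprotectin, rose by 6.13 ± 0.37 and 5.56 ± 0.29 in chow-fed mice and by 4.78 ± 0.37 and 4.77 ± 0.29 on the high fat diet. The beta-defensin gene Defb14 rose by 2.74 ± 0.21, from a dim CD-vehicle mean of 2.20 to 4.94, Lcn2 (lipocalin-2) by 2.61 ± 0.18 and the beta-defensin gene Defb4 by 2.40 ± 0.32 in chow-fed mice. All of these genes are also induced by IL-17 and other cytokines. Il19, a cytokine of the IL-10 family, and the growth factor gene Hbegf rose on the high fat diet, by 0.89 ± 0.20 and 0.81 ± 0.18 (limma adjusted p = 0.00824 and 0.00752). Il19 was dim in HFD-vehicle skin, at a mean of 2.69, so its difference is taken against a value near background.

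Most cytokine and chemokine genes of that list were dim, with 13 of the 22 genes at or below the limit in CD-vehicle skin and 10 in CD-IMQ skin. Cxcl5, Csf2, Csf3, Il6, Il23a, Il20, Il24 and Camp were dim in all 4 groups. The median difference over the list was 0.095 in chow-fed mice and 0.19 on the high fat diet. In HFD-vehicle against CD-vehicle skin S100a8 rose by 1.64 ± 0.37, S100a9 by 1.14 ± 0.29 and Lcn2 by 0.98 ± 0.18 (limma adjusted p = 0.0209, 0.0389 and 0.00385), and the other 19 genes did not pass. When eBayes was run with trend and robust, 1 of the 22 rose.

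Of 12 genes for known inducers of IL-36 and their receptors, 2 rose in chow-fed mice and 3 on the high fat diet, and 0 fell. Among all genes 3.91% and 3.65% rose in these comparisons. Il17f, a cytokine that drives IL-36 expression in keratinocytes, rose by 0.72 ± 0.13 in chow-fed mice (limma adjusted p = 0.00105). Tlr7, the imiquimod receptor gene, rose by 0.85 ± 0.17 on the high fat diet (limma adjusted p = 0.00224), as did Tnfrsf1b, a TNF receptor gene, by 1.05 ± 0.16 (limma adjusted p = 0.000118). Il17a and Il22 were dim in every group. By limma 0 of the 12 passed between the diets in vehicle skin, and 1 had an unadjusted p below 0.05, against 2.18% and 14.7% of all genes. The number in chow-fed mice ranged from 1 to 4 over the other settings.

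In HFD-IMQ against CD-IMQ skin 0 of the 75 genes of these 6 lists passed by limma, and 11 had an unadjusted p below 0.05. Of all genes 0% and 10.3% did, so the count of 0 is not particular to these lists. The count of 0 held under each other setting and without each array in turn, where only 0 to 20 of all 22180 genes were called.

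Several marker lists of cell types differed between the same groups. With IMQ 3.91% of all genes rose and 7.02% fell in chow-fed mice, and 3.65% and 2.24% on the high fat diet. Between the diets in vehicle skin 1.22% of all genes were higher on the high fat diet and 0.956% lower. Of 9 suprabasal keratinocyte markers, 7 rose and 1 fell in CD-IMQ against CD-vehicle skin, with Casp14 higher by 2.97, Krt1 by 2.08 and Flg by 1.84, and Krt77 at -4.03. In HFD-IMQ against HFD-vehicle skin, where all 4 ligand genes rose, 2 of the 9 rose and 1 fell, or 1 rose with only these groups in the fit. In HFD-vehicle against CD-vehicle skin 5 rose and 0 fell, or 0 rose with only these groups in the fit. The mean level of the 9 markers ran from 7.15 to 8.46 over CD-vehicle mice and from 8.57 to 9.09 over HFD-vehicle mice. The mean level of 6 basal keratinocyte markers ran from 5.64 to 6.36 and from 6.07 to 6.99 in those groups. The part of these markers in the ligand differences was not tested.

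**Figure D5:**
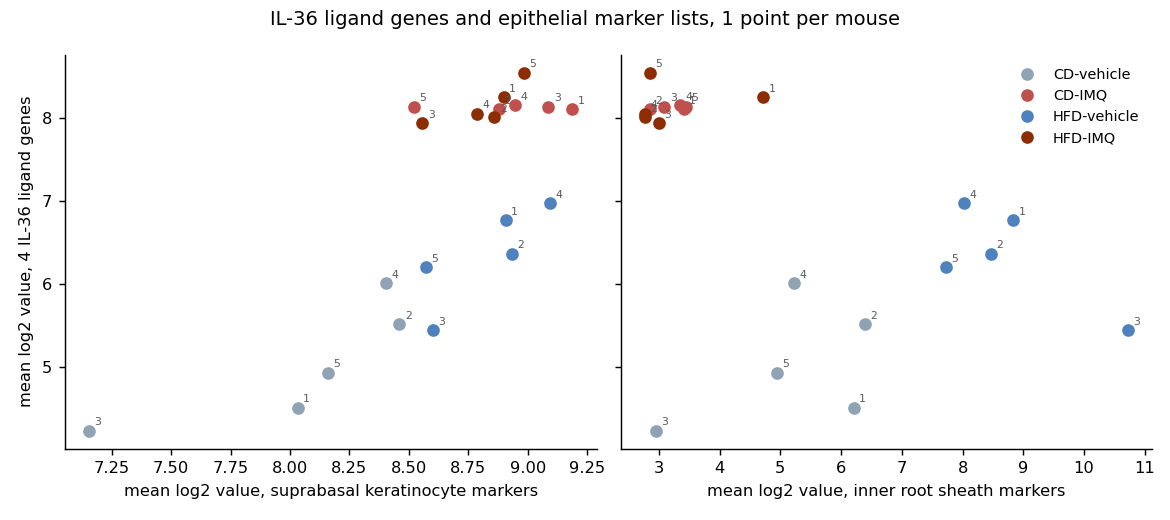
Mean log2 value of the 4 IL-36 ligand genes (vertical axis) against the mean of the suprabasal keratinocyte markers (left) and of the inner root sheath markers (right), with 1 numbered point per mouse coloured by group. Among vehicle mice the ligand genes are higher where the suprabasal markers are higher, and HFD-vehicle 3 combines the lowest ligand level of its group with the highest inner root sheath level of all 20 mice.

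Over the 10 vehicle mice the mean of the 4 ligand genes followed the mean of the suprabasal markers with a Pearson r of 0.905. CD-vehicle 3, with the lowest ligand mean of 4.23, also had the lowest marker mean of 7.15, and HFD-vehicle 4, with the highest ligand mean among vehicle mice of 6.98, had the highest marker mean of 9.09. This r spans 2 diets that differ in both measures. Over all 20 mice r was 0.772, and for residuals from the group means it was 0.725. The marker mean includes Krt77, which fell with IMQ on both diets while 7 of the 9 markers rose in chow-fed mice. In that comparison the mean therefore understates the rise of the others. For the ligand genes the residuals come mainly from the vehicle mice. These r values are descriptions of measures taken from the same arrays.

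Inner root sheath genes, which mark growing hair follicles, moved with the diet groups as well. All 7 were higher in HFD-vehicle than in CD-vehicle skin, by 2.89 to 4.34, and the mean level ran from 2.94 to 6.39 over CD-vehicle mice and from 7.73 to 10.7 over HFD-vehicle mice, without overlap. With IMQ 5 of the 7 fell in chow-fed mice (3 when eBayes was run with trend and robust) and 7 of 7 on the high fat diet, to between 2.77 and 4.72 over the IMQ mice. For residuals from the group means the r between these markers and the ligand genes was 0.0010 over 20 mice. Over the 10 vehicle mice it was 0.617, and over all 20 mice without removal of the group means it was -0.503. In CD-vehicle 3 both levels were the lowest of the group, at 2.94 for the markers and 4.23 for the ligand genes. HFD-vehicle 3 had the highest marker level, 10.7, with the lowest ligand level of its group, 5.44. These mice pull the residual r in opposite directions. Its value near 0 therefore does not show that markers and ligand genes were unrelated within groups. The part of these markers in the diet difference of the ligand genes was not tested.

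Neutrophil markers, of interest because neutrophil proteases process IL-36 proteins, were dim for 6 of 8 genes in vehicle skin of either diet. With IMQ 3 of 8 rose in chow-fed mice and 4 of 8 on the high fat diet, and the mean level over the list lay between 2.67 and 2.86 in CD-vehicle mice and between 2.95 and 3.57 in CD-IMQ mice. Of 7 fibroblast markers 4 fell in chow-fed mice (2 without CD-vehicle 1) and 2 fell on the high fat diet (1 with only the 2 groups in the fit), and 0 rose. Among all genes 7.02% fell and 3.91% rose in chow-fed mice with IMQ, and 2.24% fell and 3.65% rose on the high fat diet. Of 6 adipocyte markers 2 fell in chow-fed mice and 1 on the high fat diet (0 without HFD-vehicle 2), and 0 rose. The falls in chow-fed mice stand beside that of Il1rl2, and their part in it was not tested. Of 7 macrophage markers 4 rose in chow-fed mice (2 without CD-vehicle 1) and 6 on the high fat diet (3 with only the 2 groups in the fit). Of 7 Langerhans and dendritic cell markers 0 passed by limma in either diet, with 0 and 1 at an unadjusted p below 0.05. Among all genes 10.9% and 5.89% passed, with 23.6% and 16.7% at that unadjusted p. Between the diets in vehicle skin 0 of the 8 neutrophil and 0 of the 7 macrophage markers passed by limma, with 0 and 1 at an unadjusted p below 0.05. Among all genes 2.18% passed there and 14.7% had such an unadjusted p.

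The genes most like each ligand gene over the 20 arrays included several known from the cornifying epidermis. By Pearson r the nearest to Il1f6 were Stfa1 (stefin A1, a cysteine protease inhibitor) at 0.987, Serpinb3a (a serpin) at 0.984 and Rptn (repetin, a cornified envelope protein) at 0.981. The nearest to Il1f8 were Sdcbp2 at 0.985, Casp14 (caspase-14, which acts in cornification) at 0.982 and Teddm3 at 0.980. For Il1f9 they were Serpinb3a at 0.991, Klk9 (a kallikrein) at 0.988 and Sprr2d (a small proline-rich cornified envelope protein) at 0.986, and for Il1f5 Casp14 at 0.985, Teddm3 at 0.982 and Tprg at 0.981. These values are carried by the group differences. Serpinb3a and Sprr2d were dim in CD-vehicle skin.

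Once the group means were removed, Il1f6 was nearest to Stfa1 at 0.902, Il1f8 to Rptn at 0.947, Il1f9 to Rptn at 0.920 and Il1f5 to Asprv1 (a protease that processes filaggrin) at 0.928. Among the ligand genes themselves these residual correlations ran from 0.613 for Il1f6 with Il1f5 to 0.914 for Il1f8 with Il1f9. Il1rl2 had residual correlations of -0.355 to 0.131 with the ligand genes and Il1rap of -0.019 to 0.313. Over the 20 arrays the gene nearest to Il1rl2 was Eloc at 0.938, and the gene nearest to Il1rap was Defa-ps12 at 0.804. Defa-ps12 was dim in every group, with means from 1.18 to 1.64. The ligand genes varied mostly among vehicle mice. For Il1f6 the standard deviation was 0.85 in CD-vehicle and 0.93 in HFD-vehicle mice, against 0.043 in CD-IMQ and 0.23 in HFD-IMQ mice. The residual correlations of the ligand genes therefore rest mainly on the vehicle mice. All of these are correlations over 20 mice that share arrays and processing, given with no test.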

How the data were processed

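Per the labels' protocols, 300 ng of Trizol-extracted RNA per mouse was labelled with biotin as single-stranded DNA (GeneChip WT PLUS reagents) for Affymetrix arrays. Values were deposited on a log2 scale. Per the submitters' processing notes, the authors made these log2 values with RMA and the affy package. Versions and scan batches are not stated in these sources. RMA compresses differences near background, so fold changes of dim genes are understated.

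Of 41345 features, 23521 carried 1 gene symbol, 1814 several and 16010 none. Of the former, 23328 matched a RefSeq gene and 0 symbols changed. Group means of 22180 genes were fitted to all 20 arrays with limma 3.58.1 (lmFit, contrasts.fit and eBayes) in R 4.3.3, with 5 contrasts and Benjamini-Hochberg adjustment over all genes. Agonist minus antagonist differences used two-sided exact permutation tests in Python 3.11.15 with scipy 1.17.1. Predicted, microRNA, small nucleolar RNA, odorant receptor and vomeronasal receptor genes were left out of the most similar genes by name only. Other non-coding genes could therefore remain. Genes named from lists are up to 4 called members with the largest absolute difference, and the most similar genes are the 3 with the highest Pearson r. The text shows a part of both for length, and Il1f10, Sigirr, Il19, Hbegf, Il1b in vehicle skin and the genes named as dim are exceptions, picked with their values in view. The members and the lists were chosen with earlier results of these data known. Among 30 pairs of arrays that share a number, 4 had residuals correlated above 0.1 (range -0.217 to 0.320), so replicate numbers were not used as pairs. Alternatives were quantile normalization, median centring, a filter on dim genes, eBayes with trend and robust, array weights, the mean of all features of a gene, a replicate block, only 2 groups in the fit, and each array left out. On simulated data of 22180 genes for CD-IMQ against CD-vehicle, with 200 genes changed, 41.5%, 89.5% and 100% of changes of log2 0.5, 1 and 2 were recovered, with at most 12 false calls.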

Additional observations from a re-analysis of the deposited data

Results flagged for a closer look

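In 36 sets of 5 mice (6 genes and 3 agonist minus antagonist differences, each in 4 groups), 1 value stood apart from the other mice of its group. It was the log2 value of 5.14 for Il1f6 in HFD-vehicle 3, whose gap to the nearest mouse was 0.741 of the range of the group, above Dixon's 95% critical value of 0.71 for 5 samples. Chance gives such a value in about 1 in 20 sets. The same mouse had the highest inner root sheath marker level of all 20 mice, at 10.7.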

How the results depend on the processing

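All 8 calls of ligand genes under IMQ and the fall of Il1rl2 in chow-fed mice held under 8 alternatives and without each of 20 arrays. Precision was limited by 5 arrays a group and by vehicle groups that spread more widely than IMQ groups. HFD-vehicle against CD-vehicle called 137 genes with only 2 groups in the fit and 231 to 574 genes with 1 array left out, and HFD-IMQ against CD-IMQ called 1 gene after the dim filter, 1 with trend and robust, 1 with the mean of all features, and 0 to 20 genes with 1 array left out (20 without HFD-IMQ 4). The interaction called 57 to 198 genes with 1 array left out. Values close to 0 turned sign: Il1rap ran from -0.011 to 0.11 for CD-IMQ against CD-vehicle and from -0.043 to 0.079 for HFD-vehicle against CD-vehicle, Il1f6 from -0.0089 to 0.14 for HFD-IMQ against CD-IMQ, each with 1 array left out, and the Il1rap interaction was -0.0012 with the mean of all features.

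Between the diets in IMQ skin, quantile normalization brought Il1f6 minus Il1f5 (0.26) and Il1f9 minus Il1f5 (0.48) past the threshold, both with an adjusted exact permutation p of 0.0238, and so did leaving out HFD-IMQ 2. With 1 array left out they ran from 0.18 to 0.26 and from 0.37 to 0.54. Il1f8 minus Il1f5 ran there from -0.045 to 0.14, and Il1f9 minus Il1f5 in vehicle skin from -0.28 to 0.013. Under IMQ with 1 array left out, Il1f8 minus Il1f5 ran from 0.46 to 0.67 on chow and from 0.31 to 0.57 on the high fat diet, where Il1f6 minus Il1f5 ran from 0.60 to 1.17 and Il1f9 minus Il1f5 from 0.75 to 1.04. Calls were gained there without CD-vehicle 2 (Il1f8, chow), HFD-IMQ 2 (Il1f8, high fat diet) and HFD-vehicle 5 (Il1f6). With the replicate number as a block, Il1f6 minus Il1f5 in chow-fed mice stayed at 1.46 and Il1f9 minus Il1f5 on the high fat diet at 0.92, but 5 pairs allow no exact permutation p below 0.0625, so neither could pass. The block brought Il1f8 in HFD-vehicle against CD-vehicle skin (1.26) past the threshold and changed no other call of a member in limma. The adjusted exact permutation p moves in coarse steps and depends on the other comparisons adjusted with it. Calls gained without HFD-IMQ 2 therefore need not reflect stronger evidence. Other causes of these shifts were not tested.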
